A study of Mus musculus with 9 samples.

Results

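Long intergenic noncoding RNAs (lincRNAs) are transcripts without a recognised protein product. The name means that their genes lie between protein-coding genes, but 41 of those described here overlap one. The genes described here carry the biotype lincRNA in the Ensembl mouse annotation of build GRCm38 and had an expected count of at least 50 in all 3 libraries of at least 1 of the sorted islet cell subsets. H19, Meg3, Rian, Mirg and Peg13 were left out by name. The rule found 130 genes among 5854 lincRNA genes, of which 2014 had a count in any library, and among 55536 genes in all. The members were thus chosen by the counts themselves. The 9 RNA libraries came from islets of Langerhans of C57B/L6 mice that were 12 weeks old. All islets had the same overnight culture before they were dispersed and sorted on 2 surface proteins into 3 subsets of 3 libraries each. Cells with little CD24 were split by CD71 into an alpha-enriched subset without it and a beta-enriched subset with it, while cells with much CD24 made up the delta-enriched subset. The labels name no genetic change or treatment. The labels do not say whether the 3 libraries of a subset came from separate animals, so the p-values below measure the spread between these libraries, which may be technical.

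Some lincRNAs have known structural or regulatory roles. Malat1 and Neat1 stay in the nucleus, where Neat1 is the scaffold of paraspeckles and Malat1 gathers in nuclear speckles. Others start close to a gene for a transcription factor, on the same or on the opposite strand, and are often found in the cell type that uses that factor. Many annotated lincRNAs have no known function, and several host microRNAs or small nucleolar RNAs in their exons and introns.

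The libraries held between 5663141 and 9529920 expected counts. Summed over marker lists, alpha markers had 595548 to 910253 counts in the alpha-enriched libraries, 5479 to 9217 in the beta-enriched and 18022 to 51315 in the delta-enriched. Beta markers had 350834 to 400956 counts in the beta-enriched libraries and 35055 to 55956 in the others. Delta markers had 122336 to 151606 counts in the delta-enriched libraries, 959 to 1198 in the alpha-enriched and 40 to 70 in the beta-enriched. Pancreatic polypeptide cell markers had 20985 to 43863 counts in the alpha- and delta-enriched libraries and 1229 to 1880 in the beta-enriched ones. In 2 respects libraries stood apart. The ribosomal RNA gene CT010467.1 took 34.4% of the counts of the beta-enriched library 2 and 3.15% to 5.37% of the others, and the 12 acinar markers had 19489 counts in the delta-enriched library 3, 2905 in the alpha-enriched library 1 and 146 to 1662 elsewhere. The part of these genes in the results below was not tested, and counts without those 2 libraries are given beside the first results. In sorted bulk samples, fewer cells of a type and less RNA per cell cannot be told apart.

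Of the 130 lincRNAs, 71 had at least 50 counts in all 9 libraries, and 59 passed through only 1 or 2 subsets: 20 through alpha, 12 through alpha and beta, 5 through alpha and delta, 11 through beta, 3 through beta and delta, and 8 through delta. A gene that passed only where it was high was more likely to differ, so the counts of differences below are a description of these genes and no support for a statement about lincRNAs at large. All 130 also passed the filter on low counts of the test. Just inside the rule were A830019P07Rik, Gm10619 and Gm7967, each with a lowest count of 50 in the subset that admitted it. Just outside were F420014N23Rik at 49.49 counts and B230217J21Rik and Gm26848 at 49 counts.

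Most of the 130 were weakly expressed. Their median level, as the mean over libraries of TPM (a unit that scales for transcript length and library size), was 3.27 TPM, against 7.36 TPM for the 9734 protein-coding genes that passed the same count rule. Of the 130, 108 were under 10 TPM and 6 were above 100 TPM. The longest annotated transcript had a median length of 3113 nucleotides, and it had 1 exon in 34 genes, 2 exons in 47 and 3 or more in 49. The nearest protein-coding gene lay a median of 1816 base pairs away, overlapped the lincRNA in 41 cases and lay within 10000 base pairs in 86. Exon bases were shared with another gene that had counts in 50 of the 130, in 28 of them with a protein-coding gene. The library kit keeps strand, but strand use in the counting is unstated in the labels, so reads from such pairs cannot be told apart where exons are shared.

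In beta compared with alpha, 23 lincRNAs were higher and 17 lower (edgeR's quasi-likelihood test, Benjamini-Hochberg adjusted over all 15896 genes tested, threshold 0.05). Among all genes, 14.8% were higher and 11.9% lower. The 40 lincRNAs called are 30.8% of the 130, with 26.6% of all genes tested and 33.8% of the protein-coding genes past the same count rule called in this comparison. Between beta and delta, 27 were higher in beta and 16 lower (15.4% and 15.3% of all genes), which is 33.1%, with 30.6% of all genes and 37.6% of the protein-coding genes called. Between alpha and delta, 22 were higher in alpha and 20 lower (11% and 13.3% of all genes), which is 32.3%, with 24.3% of all genes and 29.8% of the protein-coding genes called. The shares of lincRNAs were thus between those of all genes and of protein-coding genes in the first 2 comparisons and above both in the third. Each 2 of the 3 comparisons have 1 subset in common. In all, 66 of the 130 had no call in any comparison and 17 were called in all 3.

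The median log2 fold change of the 130 was -0.09 for beta minus alpha, -0.04 for beta minus delta and 0.09 for alpha minus delta, and over all genes tested it was -0.02, -0.02 and -0.01. Without the beta-enriched library 2 and the delta-enriched library 3, 21 were higher and 14 lower in beta than alpha, 22 higher and 12 lower in beta than delta, and 19 higher and 15 lower in alpha than delta. Leaving out 1 library took the number lower in alpha than delta to 12 (without the alpha-enriched library 2), the number higher in alpha than delta to 14 (without the alpha-enriched library 3), and the number lower in beta than delta to 8 or 10 (without the beta-enriched library 1 or 3). The 71 lincRNAs with 50 counts in every library had 26.8%, 26.8% and 35.2% called in the 3 comparisons, and the 59 others 35.6%, 40.7% and 28.8%. The split of the calls depended on the scale. On log2(TPM + 1), tested with limma, 15 lincRNAs were higher and 8 lower in beta than alpha, 23 higher and 5 lower in beta than delta, and 15 higher and 6 lower in alpha than delta. That scale also moved the median log2 fold change of all genes by 0.12 for beta minus delta and by 0.16 for alpha minus delta. Protein-coding genes held 14.8% to 34.96% of the TPM of a library.

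**Figure D1:**
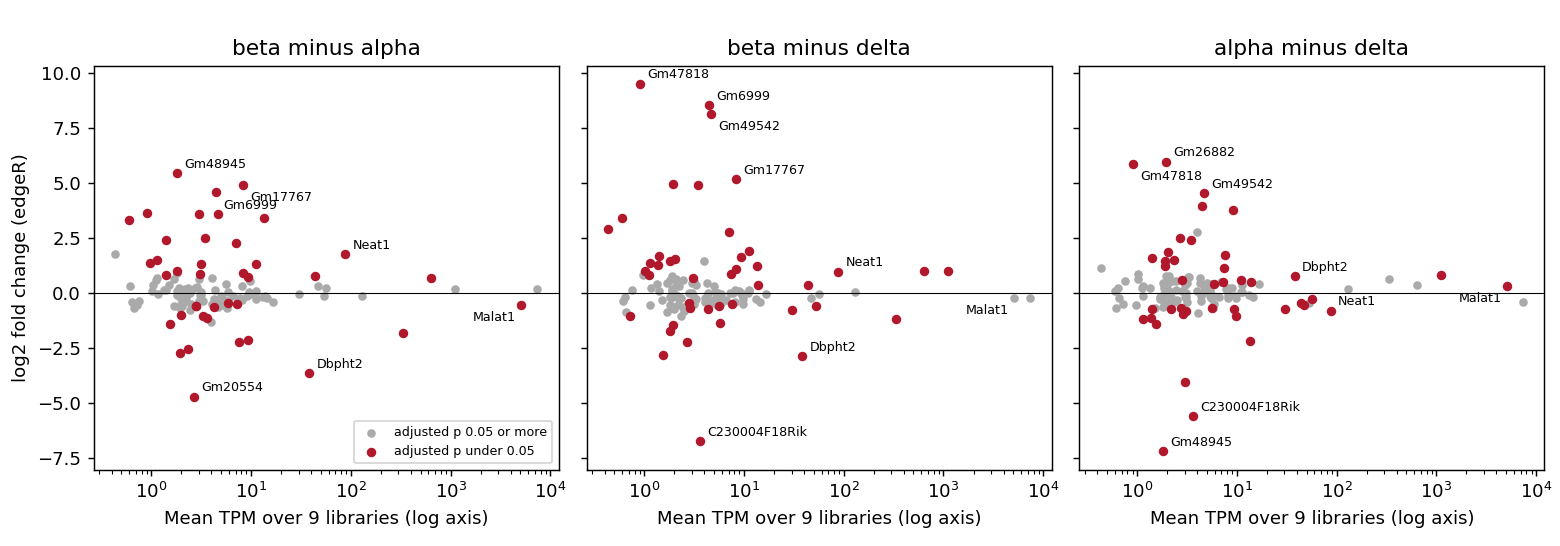
Log2 fold change of each of the 130 lincRNAs (edgeR) against its mean TPM over 9 libraries on a log axis, in the 3 comparisons; red points had an adjusted p under 0.05. Fold changes beyond 5 in either direction belonged to lincRNAs under 10 TPM, and those above 1000 TPM lay within 1 log2 unit of 0.

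A lincRNA was called enriched in a subset when it was at least 2-fold higher there than in each other subset and the larger of the 2 p-values passed after adjustment over all genes. By that rule, 4 were enriched in alpha, 11 in beta and 3 in delta, which is 3.08%, 8.46% and 2.31% of the 130. Over all genes tested, 1.83%, 2.76% and 3.89% were enriched in alpha, beta and delta. Among the 9734 protein-coding genes past the same count rule, the shares were 2.11%, 3.22% and 3.77%. Of the 11 beta-enriched lincRNAs, 10 came from the 59 that passed through only 1 or 2 subsets. Among the 71 with 50 counts in all 9 libraries, 3, 1 and 0 were enriched in alpha, beta and delta (4.23%, 1.41% and 0%). Of protein-coding genes with such counts, 0.705%, 1.85% and 1.08% were. Without the beta-enriched library 2 and the delta-enriched library 3 the counts of the 130 were 4, 10 and 3.

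**Figure D2:**
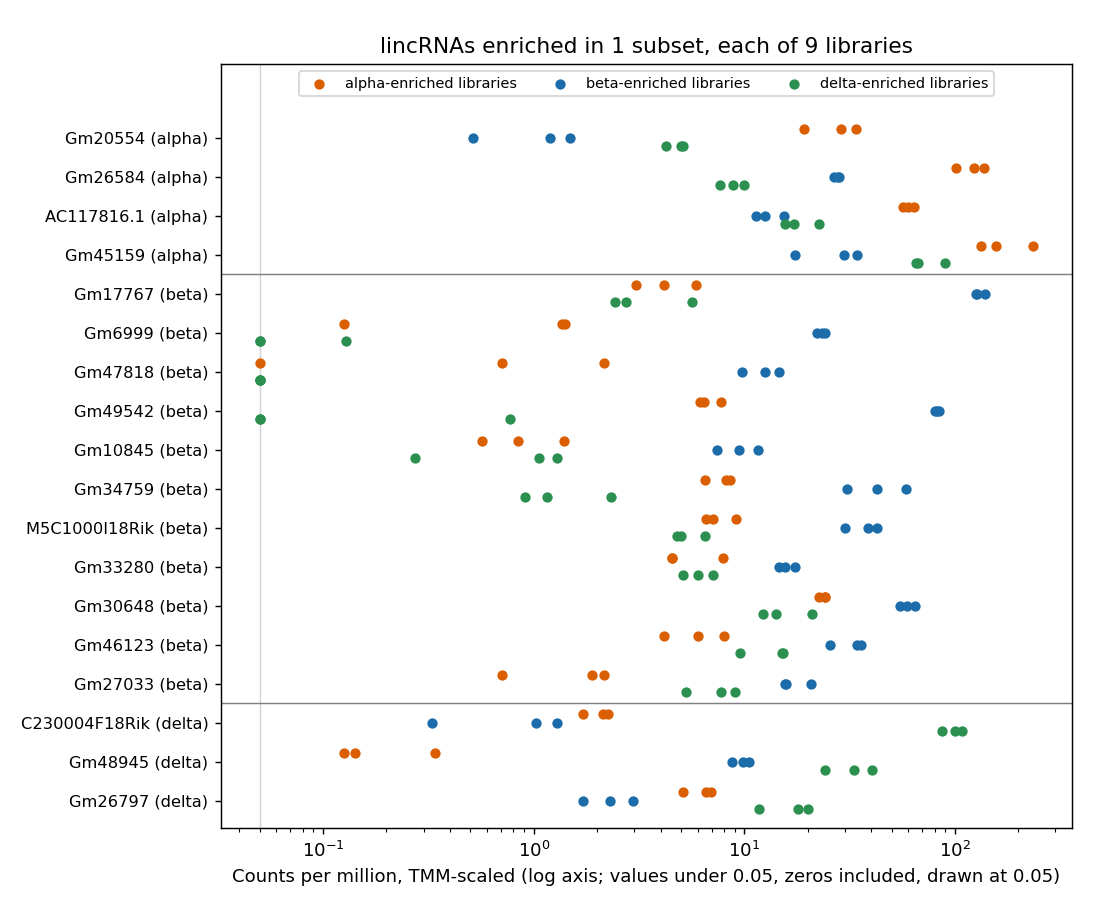
CPM (read counts scaled to library size with edgeR's TMM factors) in each of the 9 libraries, on a log axis, for the 18 lincRNAs enriched in alpha (top), beta (middle) or delta (bottom). In each row the 3 points of the named subset lie to the right of the 6 others, and Gm6999, Gm47818 and Gm49542 reach 0 in delta-enriched libraries.

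Among the most abundant lincRNAs, Malat1 outweighed all others: it held 64.0% to 80.3% of the counts of the 130 in each library. Its level was 40020.2, 47428 and 57246 CPM in the alpha-enriched libraries, 32764, 33654 and 34170.1 in the beta-enriched and 37631, 37304 and 41229.8 in the delta-enriched. The beta-enriched libraries were the lowest and did not overlap with either other subset. Malat1 was lower in beta than in alpha, with a log2 fold change of -0.52 (SE 0.11, adjusted p = 0.0016). For beta minus delta the value was -0.21 (SE 0.11, adjusted p = 0.177), and for alpha minus delta it was 0.32 (SE 0.11, adjusted p = 0.0459), a call that was lost when any 1 of the 9 libraries but the alpha-enriched library 1 was left out. Tested with limma on log2(TPM + 1), neither call held, at -0.63 (adjusted p = 0.186) for beta minus alpha and 0.68 (adjusted p = 0.129) for alpha minus delta.

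The 130 lincRNAs together took 3.22% to 7.56% of the counts of a library, and the beta share was 0.699 times the alpha share (exact two-sided permutation test, p = 0.2, where 0.1 is the smallest p that 3 against 3 libraries allow). With Malat1 and the ribosomal locus genes Gm26917 and Gm42418 left out, a choice made after the values were seen, the share relative to protein-coding counts was 0.691%, 0.787% and 0.794% in the alpha-enriched libraries, 0.928%, 0.968% and 0.944% in the beta-enriched and 0.913%, 0.966% and 0.949% in the delta-enriched. On this measure the alpha-enriched libraries were lowest and did not overlap with the others (exact two-sided permutation test against either, p = 0.1, the smallest possible). Neat1 was part of this sum. It had 6313 to 7492 counts in the alpha-enriched libraries, 18293 to 23219 in the beta-enriched and 9674 to 12727 in the delta-enriched. With the Neat1 counts taken out of the sum, the alpha-enriched libraries were no longer the lowest. The order above thus describes the sum with Neat1 and not most of the lincRNAs in it.

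Neat1, transcribed beside Malat1 on chromosome 19 (chr19:5824708-5845478), went the other way. It stood at 719, 943 and 1057 CPM in the alpha-enriched libraries, 2981, 3135 and 3148 in the beta-enriched and 1649, 1463 and 1635 in the delta-enriched. The 3 subsets did not overlap, with beta highest, delta between and alpha lowest. The log2 fold change was 1.77 (SE 0.11, adjusted p = 3.47e-09) for beta minus alpha, 0.96 (SE 0.11, adjusted p = 3.86e-06) for beta minus delta and -0.80 (SE 0.11, adjusted p = 4.02e-05) for alpha minus delta. With limma on log2(TPM + 1) the alpha and delta difference was -0.47 (adjusted p = 0.291) and no longer called.

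Rmrp, the RNA of the enzyme RNase MRP that helps to process ribosomal RNA, had the highest mean level per length, 7429 TPM. It stood at 997, 1167 and 841 CPM in the alpha-enriched libraries, 832, 1694 and 881 in the beta-enriched and 1174, 1523 and 1242 in the delta-enriched. The highest value was that of the beta-enriched library 2, the library with the large ribosomal RNA share, and no comparison was called. Without that library, Rmrp was lower in beta than in delta by 0.62 on the log2 scale (adjusted p = 0.00321), and lower in alpha than in delta by 0.39 (adjusted p = 0.0309). Rmrp shares 124 exon bases with Ccdc107 on the opposite strand.

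Gm26917 and Gm42418 lie beside each other at the ribosomal RNA repeat on chromosome 17, and Gm42418 shares 1822 exon bases with CT010467.1 on the opposite strand. RefSeq lists Gm42418 as an 18S ribosomal RNA pseudogene. Gm42418 stood at 1916, 1872 and 1697 CPM in the alpha-enriched libraries, 2113, 3526 and 3088 in the beta-enriched and 1358, 1509 and 1429 in the delta-enriched. The level in beta exceeded that in alpha by a log2 value of 0.67 (SE 0.14, adjusted p = 0.00242) and that in delta by 1.02 (SE 0.14, adjusted p = 5.93e-05). On log2(TPM + 1) the first was 0.57 (adjusted p = 0.207) and not called. Gm26917 was lower in delta than in beta by a log2 fold change of 0.99 (SE 0.24, adjusted p = 0.017) and than in alpha by 0.82 (SE 0.24, adjusted p = 0.0454), and both calls were lost without the beta-enriched library 2 (adjusted p = 0.0503 and 0.0695). The latter was also lost without any 1 alpha-enriched library or the delta-enriched library 3, with an adjusted p of up to 0.107. With no filter on low counts the adjusted p was 0.0558 and 0.115, and on log2(TPM + 0.1) it was 0.0638 for alpha and delta. The library with the highest CT010467.1 share, beta-enriched library 2, also had the highest Gm42418 level, and the part of ribosomal RNA reads in both genes was not tested.

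Bc1, a short cytoplasmic RNA made by RNA polymerase III and known from neurons, had a mean of 333 TPM that rested on few reads. Its counts were 76, 108 and 58 in the alpha-enriched libraries, 23, 20 and 13 in the beta-enriched and 76, 29 and 36 in the delta-enriched. All beta-enriched libraries were below the others. Bc1 had a log2 fold change of -1.83 (SE 0.40, adjusted p = 0.00212) for beta minus alpha and -1.18 (SE 0.41, adjusted p = 0.0346) for beta minus delta. The latter was not called when any 1 beta-enriched library or the delta-enriched library 1 was left out (adjusted p = 0.0896, 0.0556, 0.132 and 0.205). Without the delta-enriched library 1 its value was -0.66, and on log2(TPM + 1) it was -0.57 (adjusted p = 0.213).

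The remaining abundant lincRNAs had smaller differences. 2900097C17Rik, which RefSeq names Norad and which binds Pumilio proteins, stood at 482 ± 28.3 CPM in alpha, 562 ± 13.8 in beta and 577 ± 24.7 in delta (SD, n = 3 each). It was lower in alpha than in delta, with a log2 fold change of -0.26 (SE 0.08, adjusted p = 0.0282). Lncpint, induced by p53, was also lower in alpha than in delta, at -0.52 (SE 0.14, adjusted p = 0.0109). The call of 2900097C17Rik was lost without the alpha-enriched library 2 or 3 or the delta-enriched library 1 or 2, with an adjusted p of up to 0.136, and with no filter on low counts (adjusted p = 0.0797). On log2(TPM + 1) its difference was -0.02 (adjusted p = 0.973). That of Lncpint was lost without the alpha-enriched library 2 or the delta-enriched library 3, with an adjusted p of up to 0.0802, and on log2(TPM + 1) its difference was -0.21 (adjusted p = 0.696). Snhg20, a host of a small Cajal body RNA, was lower in beta than in delta (-0.60, SE 0.21, adjusted p = 0.0374), a call that was lost without any 1 alpha-enriched library, the beta-enriched library 1 or 3 or the delta-enriched library 1, with an adjusted p of up to 0.198, and on log2(TPM + 1) (-0.50, adjusted p = 0.157). Gm10076 showed no call, at 47.7 ± 10.9, 43.6 ± 4.17 and 41.7 ± 2.44 CPM in alpha, beta and delta.

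**Figure D3:**
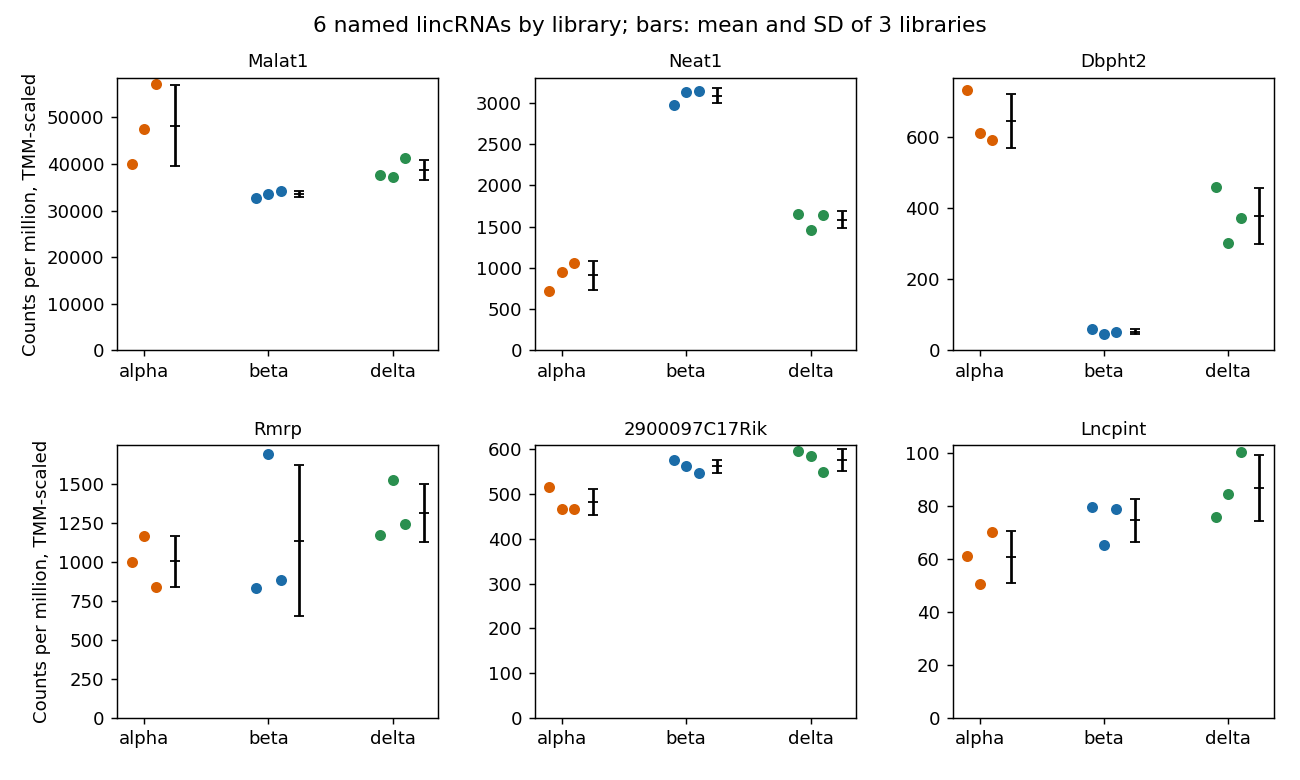
TMM-scaled CPM by library for Malat1, Neat1, Dbpht2, Rmrp, 2900097C17Rik and Lncpint, with the mean and SD of each subset beside the points. Malat1 was lowest and Neat1 highest in the beta-enriched libraries, Dbpht2 stood at 44.7 to 59.3 in beta and above 300 elsewhere, and Rmrp was highest in the beta-enriched library 2.

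Of the 4 alpha-enriched lincRNAs, Gm20554 lay 256 base pairs from Irx2, a homeobox factor of alpha cells, and was transcribed away from it. Its counts were 169, 269 and 204 in the alpha-enriched libraries, 4, 7 and 9 in the beta-enriched and 31, 33 and 40 in the delta-enriched, with no overlap between subsets. This gave a log2 fold change of -4.70 (SE 0.39, adjusted p = 2.12e-08) for beta minus alpha, -2.20 (SE 0.41, adjusted p = 2.68e-04) for beta minus delta and 2.51 (SE 0.29, adjusted p = 4.38e-06) for alpha minus delta. On log2(TPM + 1) the beta and delta difference was -0.67 (adjusted p = 0.117) and not called. Irx2 itself stood at 124 ± 7.74 CPM in alpha, 1.02 ± 0.0216 in beta and 9.86 ± 1.51 in delta (SD, n = 3 each). The order of the 3 subsets was the same for both genes. RefSeq's 300-base promoter window, from 250 bases before to 50 after the start, covers nearly the whole stretch between the pair. It is shown here with its CG dinucleotides in capitals (GRCm38.p6, chr13:72628515-72628814, minus strand):

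Gm20554: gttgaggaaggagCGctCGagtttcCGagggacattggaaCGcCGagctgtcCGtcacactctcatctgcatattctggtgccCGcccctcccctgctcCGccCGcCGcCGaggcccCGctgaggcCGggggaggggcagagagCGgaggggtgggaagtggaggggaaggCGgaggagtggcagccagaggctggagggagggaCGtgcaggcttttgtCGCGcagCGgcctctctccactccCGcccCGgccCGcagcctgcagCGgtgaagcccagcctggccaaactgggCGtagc

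The window holds 24 CG dinucleotides, and 79.9% of 32544 distinct RefSeq promoter windows of this length hold fewer. The median over all windows is 7.

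Gm26584 (chr8:40862395-40865647) lies opposite Slc7a2, a transporter of cationic amino acids and a marker of alpha cells, and shares 635 exon bases with it. It stood at 102, 124 and 137 CPM in the alpha-enriched libraries, 28.1, 26.6 and 27.9 in the beta-enriched and 7.65, 9.98 and 8.87 in the delta-enriched. All 3 subsets were separate, with alpha highest and delta lowest. Its log2 fold changes were -2.13, 1.64 and 3.77 for beta minus alpha, beta minus delta and alpha minus delta, and those of Slc7a2 were -2.10, 1.77 and 3.87. Slc7a2 was at 1898 ± 151 CPM in alpha (SD, n = 3), and reads from the shared exon bases cannot be told apart.

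AC117816.1 lies 1089 base pairs downstream of A1cf, an RNA-binding cofactor of Apob mRNA editing, on the same strand and with no shared exon base. Its counts were 526, 451 and 454 in alpha, 98, 66 and 93 in beta and 126, 150 and 121 in delta. The alpha-enriched libraries were far above the rest, with a log2 fold change of -2.20 (SE 0.18, adjusted p = 4.85e-08) for beta minus alpha and 1.71 (SE 0.17, adjusted p = 8.66e-07) for alpha minus delta. A1cf differed by -1.93 and 1.23 in the same comparisons. Gm45159, within Dlg2, a scaffold protein of synapses, stood at 175 ± 53.2 CPM in alpha, 27.2 ± 8.73 in beta and 73.9 ± 13.4 in delta. It shares 75 exon bases with Dlg2, whose level was 19.7 ± 1.65, 3.67 ± 1.45 and 17.3 ± 5.76 CPM. For alpha minus delta, Gm45159 had a log2 fold change of 1.24 (SE 0.28, adjusted p = 0.0124) and Dlg2 of 0.19 (SE 0.27, adjusted p = 0.665). The call of Gm45159 was lost without the delta-enriched library 1 or 2 (adjusted p = 0.0697 in both cases) and on log2(TPM + 0.1) (adjusted p = 0.0588).

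Dbpht2 did not meet the enrichment rule, since alpha was less than 2-fold above delta, but it was far lower in beta than in both. RefSeq lists it as protein-coding, against the lincRNA biotype used here. Its counts were 6435, 4854 and 4201 in the alpha-enriched libraries, 462, 261 and 311 in the beta-enriched and 3374, 1992 and 2906 in the delta-enriched. No subset overlapped another. Dbpht2 had a log2 fold change of -3.64 (SE 0.15, adjusted p = 3.34e-10) for beta minus alpha, -2.87 (SE 0.15, adjusted p = 2.92e-09) for beta minus delta and 0.77 (SE 0.14, adjusted p = 9.87e-04) for alpha minus delta.

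9030622O22Rik, which lies 2674 base pairs downstream of Foxa2 on the same strand, was lower in beta than in alpha. Its counts were 62, 60 and 64 in alpha, 15, 10 and 2 in beta and 26, 12 and 23 in delta, which gave -2.54 (SE 0.50, adjusted p = 9.38e-04) for beta minus alpha. Foxa2, a forkhead factor of all islet endocrine cells, stood at 62.4 ± 6.55, 56.98 ± 2.58 and 60.9 ± 5.91 CPM in alpha, beta and delta and had no call. Gm26882, which shares 1499 exon bases with Morf4l1 on the opposite strand, had 60.4, 110.6 and 58.3 counts in alpha, 30.4, 20.8 and 43.1 in beta and 0.2, 2.1 and 1 in delta. Against the 3 counts in delta the ratio of scaled levels was 69.6 for alpha (95% exact Clopper-Pearson interval 23.5 to 340.2, counting error only) and 34.6 for beta (11.5 to 170.7).

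The beta-enriched group was led by Gm17767, whose nearest protein-coding gene, Nabp1, lies 28661 base pairs away. Its counts were 27, 33 and 42 in the alpha-enriched libraries, 986, 735 and 840 in the beta-enriched and 20, 16 and 44 in the delta-enriched. Beta did not overlap with the others, while alpha and delta overlapped. Gm17767 had a log2 fold change of 4.91 (SE 0.25, adjusted p = 5.52e-10) for beta minus alpha and 5.15 (SE 0.26, adjusted p = 3.58e-10) for beta minus delta. Nabp1, a protein that binds single-stranded DNA, was at 23.8 ± 8.99, 193 ± 41.3 and 28.00 ± 5.12 CPM, higher in beta by 3.03 (SE 0.28, adjusted p = 4.44e-05) and 2.78 (SE 0.28, adjusted p = 6.28e-05). In contrast to the window beside Irx2, the promoter window of Gm17767 holds 2 CG dinucleotides, and 13.99% of all windows hold fewer (GRCm38.p6, chr1:51596669-51596968, minus strand, CG in capitals):

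Gm17767: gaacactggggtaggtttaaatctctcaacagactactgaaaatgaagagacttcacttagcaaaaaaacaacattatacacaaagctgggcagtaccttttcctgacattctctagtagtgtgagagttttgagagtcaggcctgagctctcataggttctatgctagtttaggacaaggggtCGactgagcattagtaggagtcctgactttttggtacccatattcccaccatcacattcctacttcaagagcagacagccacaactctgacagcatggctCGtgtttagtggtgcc

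Of the 11 beta-enriched lincRNAs, 3 lie within 169.6 kilobases on chromosome 14 (chr14:79836712-80006326) beside Olfm4, which encodes the secreted protein olfactomedin 4. Gm6999 spans this stretch and shares 153 exon bases with Olfm4 on the same strand, Gm49542 lies inside it on the same strand, and Gm10845 lies inside it on the opposite strand. Gm49542 had 54, 51 and 55 counts in alpha, 642, 468 and 509 in beta and 0, 0 and 6 in delta. Gm6999 had 12, 1 and 10 in alpha, 189, 137 and 134 in beta and 0, 0 and 1 in delta. Gm10845 had 5, 11 and 6 in alpha, 58, 68 and 57 in beta and 2, 7 and 10 in delta. All 3 were higher in each beta-enriched library than in any other library. The log2 fold change for beta minus alpha was 3.60 (SE 0.25, adjusted p = 3.19e-08) for Gm49542, 4.57 (SE 0.48, adjusted p = 8.04e-07) for Gm6999 and 3.33 (SE 0.52, adjusted p = 1.11e-04) for Gm10845.

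Against delta the fold of Gm6999 rests on 1 count in delta: the ratio was 507.6 with a 95% exact Clopper-Pearson interval of 90.6 to 20091.6 that covers counting error only. Gm49542 and Gm10845 were higher in beta than in delta by 8.14 (SE 0.69, adjusted p = 2.81e-10) and 3.42 (SE 0.54, adjusted p = 8.43e-05). Alpha exceeded delta for Gm49542 (4.53, SE 0.70, adjusted p = 2.91e-06), while for Gm10845 the value was 0.09 (SE 0.60, adjusted p = 0.936). Olfm4 itself stood at 3.998 ± 1.72, 74.2 ± 4.4 and 0.703 ± 0.628 CPM in alpha, beta and delta. Pcdh8, the protein-coding gene nearest to Gm10845, was lower in beta than in alpha (-3.73, SE 0.92, adjusted p = 0.0034), the opposite direction.

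Gm27033 lies 4872 base pairs downstream of Pdx1, a homeobox factor of beta and delta cells, on the same strand (chr5:147280720-147281263). Its counts were 19, 15 and 5 in alpha, 123, 91 and 125 in beta and 57, 60 and 41 in delta. The order, beta above delta above alpha with no overlap, was also that of Pdx1, at 10.3 ± 2.98, 132 ± 12.7 and 70.9 ± 4.38 CPM. The log2 fold changes of Gm27033 were 3.41 (SE 0.37, adjusted p = 1.55e-06) for beta minus alpha and 1.23 (SE 0.32, adjusted p = 0.0066) for beta minus delta, and those of Pdx1 were 3.68 and 0.89. The second call of Gm27033 was lost without the beta-enriched library 2 and the delta-enriched library 3 together (adjusted p = 0.0702).

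M5C1000I18Rik overlaps C2cd4b on the opposite strand over 627 exon bases. It stood at 7.06, 6.55 and 9.17 CPM in the alpha-enriched libraries, 30.2, 42.7 and 38.5 in the beta-enriched and 4.78, 6.502 and 5.01 in the delta-enriched, with beta above both other subsets in every library. Its log2 fold changes, 2.29 for beta minus alpha and 2.77 for beta minus delta, were close to the 2.19 and 2.63 of C2cd4b, and reads in the shared exons cannot be told apart. Gm47818 was listed at 0 counts in all delta-enriched libraries, at 19, 0 and 5 in alpha and at 114, 57 and 76 in beta. Against a floor of 3 counts over the delta group, beta was at least 90.9-fold higher. The alpha-enriched library 2 was also at 0, and no standard error could be fitted for this gene.

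The other beta-enriched lincRNAs lie over 1000 base pairs from a protein-coding gene. Gm34759 stood at 7.74 ± 1.097 CPM in alpha, 44.1 ± 14.1 in beta and 1.46 ± 0.755 in delta, so that alpha also exceeded delta (2.39, SE 0.37, adjusted p = 5.29e-05). Gm30648 stood at 23.6 ± 0.849, 59.5 ± 4.84 and 15.8 ± 4.56 CPM, Gm46123 at 6.08 ± 1.94, 31.8 ± 5.48 and 13.3 ± 3.23, and Gm33280 at 5.66 ± 1.94, 15.9 ± 1.39 and 6.07 ± 0.965, in the same order of subsets. The smaller of the 2 log2 fold changes was 2.51 for Gm34759, 1.34 for Gm30648, 1.26 for Gm46123 and 1.38 for Gm33280. On log2(TPM + 0.1) the calls of Gm46123 against delta and of Gm33280 against alpha were lost (adjusted p = 0.067 and 0.0855). Beside Gm33280, Uggt1, a folding sensor of the endoplasmic reticulum, was also higher in beta, at 187 ± 5.14, 435 ± 31.9 and 236 ± 9.93 CPM in alpha, beta and delta. The gene next to Gm46123, Lca5, was instead lower in beta than in delta (-1.08, SE 0.17, adjusted p = 1.12e-04).

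In delta, C230004F18Rik (chrX:61116378-61292484) stood out. Its counts were 730.5, 716 and 675.5 in the delta-enriched libraries, 15, 16.5 and 15.8 in the alpha-enriched and 10, 6 and 2 in the beta-enriched. Every delta-enriched library was far above every other library. The log2 fold change was -6.73 (SE 0.33, adjusted p = 4.12e-12) for beta minus delta and -5.59 (SE 0.24, adjusted p = 1.89e-11) for alpha minus delta. RefSeq names the gene Cdr1os. It runs opposite Cdr1, whose 1554 exon bases lie inside it and which had a mean of 2.30 counts per library. A circular RNA that binds the microRNA miR-7 is known from this strand, but the gene-level counts do not separate circular from linear RNA, and no value is given for the circle.

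The longest annotated transcript (19658 nucleotides, GENCODE M21 on GRCm38) is shown here for its matches to miR-7. The mature miR-7a-5p of RefSeq is shown with its seed, bases 2 to 8, in capitals, and below it are 3 stretches of the transcript with the letters complementary to the seed in capitals, at positions 8769, 9082 and 11594 counted from the transcript's first base:

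mmu-miR-7a-5p: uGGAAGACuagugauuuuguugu

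site at 8769: ggtgccagtaccaagGTCTTCCa

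site at 9082: tccagaaaaatccaaGTCTTCCa

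site at 11594: ttccagcatctttatGTCTTCCa

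The 7 letters GTCTTCC, searched on the transcript strand, occurred 125 times in this transcript, which is 6.36 times per kilobase, and an A followed in 35 cases. Of the 125, 123 lay in a stretch of 2832 nucleotides with no gap between neighbouring starts above 109 nucleotides. Another form, found 19 times with the same flanking letters, is ttcccgaaaatccaaGTCTTCCc. Among the longest transcripts of all 5854 lincRNA genes, 11.4% held the letters at all and the next highest number was 8. Of the 130 lincRNAs described here 26.2% held them, with 3 as the next highest number, in Gm26786, Gm37494 and Gm45159. The 130 have longer transcripts than all lincRNAs, with medians of 3113 and 984 nucleotides. A match describes letters, not binding, and miR-7 itself was not measured.

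**Figure D4:**
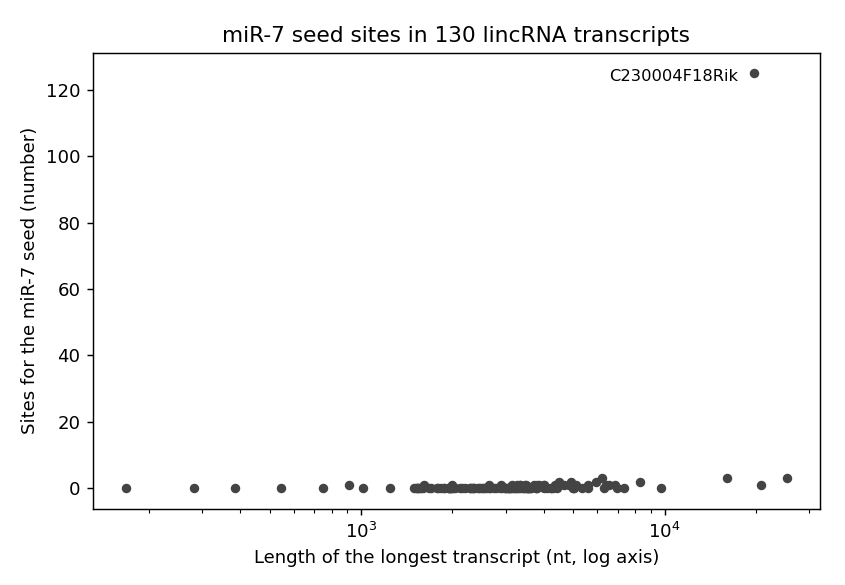
Number of matches to the miR-7 seed in the longest annotated transcript of each of the 130 lincRNAs against its length in nucleotides on a log axis. C230004F18Rik has 125 matches, and no other point is above 3.

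Gm48945 was also highest in delta, with few counts in alpha. Its counts were 3, 1 and 1 in the alpha-enriched libraries, 82, 51 and 60 in the beta-enriched and 242, 160 and 316 in the delta-enriched. The 3 subsets did not overlap, and the beta level lay between. The log2 fold change was -7.17 (SE 0.60, adjusted p = 3.14e-10) for alpha minus delta, -1.74 (SE 0.23, adjusted p = 1.86e-05) for beta minus delta and 5.43 (SE 0.60, adjusted p = 1.74e-08) for beta minus alpha, and the nearest protein-coding gene lies 287269 base pairs away. Gm26797, 1446 base pairs from Ano10, stood at 6.196 ± 0.944, 2.33 ± 0.629 and 16.6 ± 4.31 CPM in alpha, beta and delta. It was higher in delta than in beta (-2.82, SE 0.33, adjusted p = 3.10e-06 for beta minus delta), while Ano10 had no call in any comparison.

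4930429F24Rik starts 134 base pairs from Tmem30a, a subunit of lipid flippases, and runs away from it. Its counts were 10, 5 and 5 in alpha, 99, 62 and 45 in beta and 107, 83 and 116 in delta. Alpha was far below both other subsets, with 3.60 (SE 0.38, adjusted p = 6.58e-07) for beta minus alpha and -4.04 (SE 0.38, adjusted p = 1.78e-07) for alpha minus delta. Tmem30a stood at 385 ± 27.7, 544 ± 4.29 and 388 ± 48.5 CPM, with 0.50 (SE 0.10, adjusted p = 7.72e-04) and -0.01 (SE 0.10, adjusted p = 0.949) in the same comparisons. The window at the start shared by this pair holds 25 CG dinucleotides in 300 bases, and 81.4% of windows hold fewer (GRCm38.p6, chr9:79793391-79793690, plus strand, CG in capitals):

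4930429F24Rik: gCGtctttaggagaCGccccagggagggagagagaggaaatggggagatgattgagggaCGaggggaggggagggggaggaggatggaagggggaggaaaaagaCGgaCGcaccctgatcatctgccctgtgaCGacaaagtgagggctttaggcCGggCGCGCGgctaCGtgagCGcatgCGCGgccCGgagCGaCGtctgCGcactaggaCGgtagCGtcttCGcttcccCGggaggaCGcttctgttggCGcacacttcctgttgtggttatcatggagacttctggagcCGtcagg

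A330008L17Rik, 171 base pairs from Cdh8 and transcribed away from it, was lower in alpha than in delta (-1.19, SE 0.38, adjusted p = 0.0304), as was Cdh8, a cadherin of neurons, at -1.57 (SE 0.12, adjusted p = 4.74e-08). The call of A330008L17Rik was lost without the alpha-enriched library 2 or 3 or the delta-enriched library 1 or 2, with an adjusted p of up to 0.129, and on log2(TPM + 1) (-0.49, adjusted p = 0.24).

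Over the 130 lincRNAs, 109 had a nearest protein-coding gene that was also tested. Between beta and alpha, 34 of these lincRNAs were called, and the neighbour was called the same way for 20, the opposite way for 2 and not called for 12. The share of 58.8% compares with 22.1% of the 2391 called protein-coding genes past the same count rule and their own nearest protein-coding neighbours. Between beta and delta the counts were 14, 5 and 15 of 34, a share of 41.2% against 25.8%. Between alpha and delta they were 12, 3 and 18 of 33, a share of 36.4% against 24.1%. Without pairs that share an exon base the numbers called the same way were 15 of 29, 10 of 27 and 9 of 26, or 51.7%, 37.0% and 34.6%, against 22.6%, 25.6% and 23.4% of the called protein-coding genes without a shared exon base. Across the 109 pairs, Pearson's r of the 2 log2 fold changes was 0.62, 0.59 and 0.41, given as a description, since pairs share libraries and Gm6999 and Gm49542 share a neighbour.

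Pairs within 10000 base pairs held most of these cases. In the beta and alpha comparison 15 of 22 such called lincRNAs had a neighbour called the same way and none had one called the opposite way. This share of 68.2% compares with 20.1% of the called protein-coding genes with a neighbour at that distance. The set includes all pairs that share exon bases, whose reads cannot be told apart. Leaving them out over all distances took the called lincRNAs from 34 to 29 and those with a neighbour called the same way from 20 to 15. The share at this distance is thus below 68.2% without them, and it is also lower in the other comparisons. Between beta and delta the same held for 10 of 21 with none opposite, 47.6% against 24.3%, and between alpha and delta for 8 of 22 with 1 opposite, 36.4% against 23.5%. Besides the pairs described above, the 10000-base-pair set includes Gm10619 with Fam174b, both higher in beta than in alpha, by 1.36 (SE 0.40, adjusted p = 0.0176) and 1.13 (SE 0.11, adjusted p = 3.31e-07). The call of Gm10619 was lost without the alpha-enriched library 1 or 2 or the beta-enriched library 1 or 3, with an adjusted p of up to 0.0872, and on log2(TPM + 1) (0.63, adjusted p = 0.129). Morf4l1 differed in the opposite direction to Gm26882 between alpha and delta, at -0.34 (SE 0.10, adjusted p = 0.0195).

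**Figure D5:**
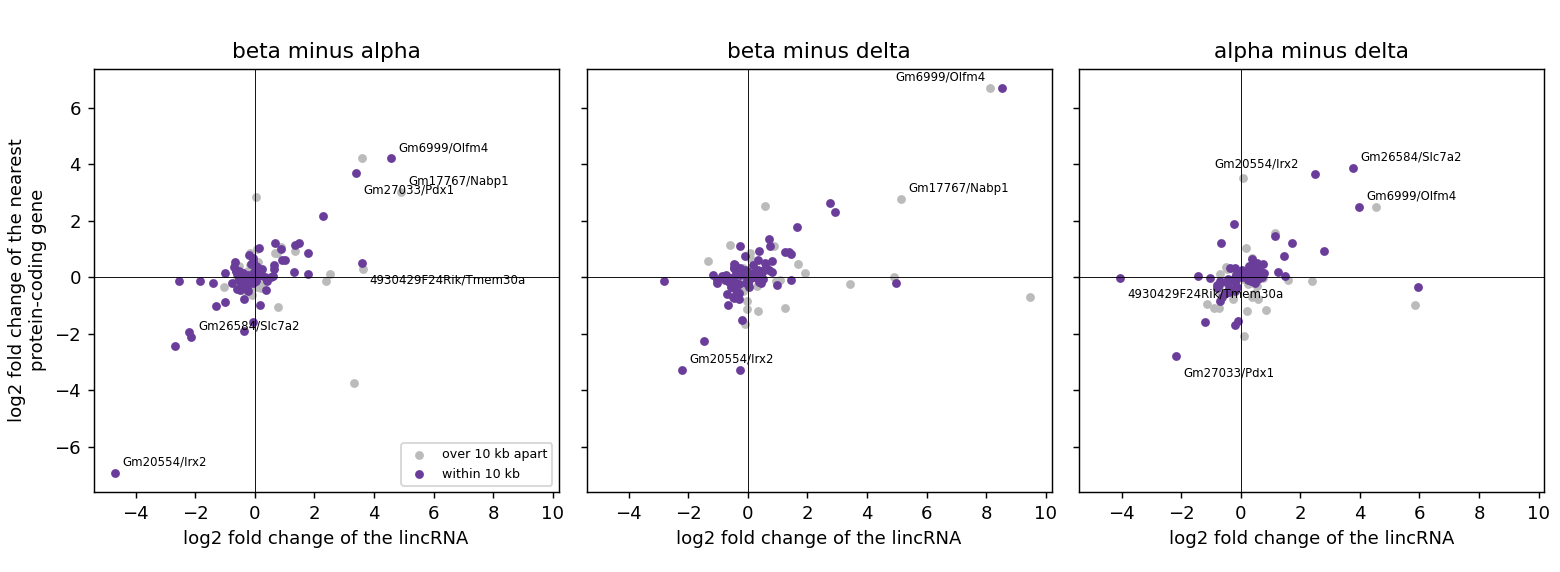
Log2 fold change of a lincRNA against that of its nearest protein-coding gene for 109 pairs in the 3 comparisons, purple within 10 kilobases. Gm20554 with Irx2, Gm27033 with Pdx1, Gm6999 with Olfm4 and Gm26584 with Slc7a2 lie near the diagonal, and 4930429F24Rik lies near the horizontal axis beside Tmem30a.

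Of the 130, 8 contain, on their own strand, a microRNA hairpin with a mature form listed in RefSeq, 17 such hairpins in all. The Ensembl annotation has further microRNA genes inside members, such as Gm24396 in C230004F18Rik, which are not counted here. These lincRNAs were looked at after their values were seen. 6720427I07Rik spans the hairpins of let-7a-1, let-7d and let-7f-1, whose mature forms share the seed GAGGUAG, printed in capitals in RefSeq's sequences:

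mmu-let-7a-5p: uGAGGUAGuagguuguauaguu

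mmu-let-7d-5p: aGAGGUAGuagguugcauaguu

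mmu-let-7f-5p: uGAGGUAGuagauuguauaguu

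6720427I07Rik stood at 35.2 ± 4.33, 23.7 ± 1.23 and 32.8 ± 1.04 CPM in alpha, beta and delta. It was lower in beta, with -0.57 (SE 0.15, adjusted p = 0.00831) for beta minus alpha and -0.47 (SE 0.15, adjusted p = 0.024) for beta minus delta. A230057D06Rik, which spans the miR-344 cluster, was highest in beta, at 175 ± 5.56, 301 ± 39.96 and 237 ± 24.6 CPM in alpha, beta and delta, with 0.78 (SE 0.11, adjusted p = 2.16e-05) for beta minus alpha and 0.35 (SE 0.11, adjusted p = 0.0184) for beta minus delta. C78859, which contains miR-138-2, was higher in beta than in delta (2.92, SE 0.71, adjusted p = 0.00611) at a low level of 9.92 ± 0.338 CPM in beta. Ftx and 5330434G04Rik, which contain miR-421 with miR-374b and miR-325, had no call. Mature microRNAs were not measured.

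Named groups of noncoding RNAs were examined beside the 130. Of 59 listed genes found in the files, 31 had the lincRNA biotype, 27 met the count rule and 11 met both, 10 of them among the 130 and the other Meg3, while 4 were found under a synonym of RefSeq. Of 5 nuclear body RNAs, 4 were tested: Neat1 and Malat1 changed as above, while Tug1 and 1700020I14Rik, which RefSeq names Oip5os1, had no call in any comparison. Among 4 RNAs of X inactivation, 3 were tested and none was called in any comparison. They include Jpx at 18.7 ± 5.798, 14.1 ± 2.43 and 14.04 ± 2.63 CPM and Ftx at 64.9 ± 14.8, 66.6 ± 9.94 and 70.7 ± 11.6 CPM in alpha, beta and delta. Xist, also tested, missed the count rule, at 2.95 ± 1.37, 4.16 ± 1.12 and 2.47 ± 1.96 CPM. Its log2 fold changes had standard errors of 0.62 to 0.63, so its lack of a call says little. Of 20 hosts of small nucleolar RNAs, 15 were tested: 1 was lower and none higher in beta than in alpha, where 11.9% of all genes were lower. In this group 3 were lower and none higher in beta than in delta, where 15.3% of all genes were lower, and 1 was lower in alpha than in delta, where 13.3% were. Snhg12, a host of several such RNAs, had no call.

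Of 13 microRNA host RNAs 4 were tested, and the same 2, Mir99ahg and 3110039I08Rik (Mir100hg in RefSeq), were lower in beta than alpha, in beta than delta and in alpha than delta, beside the same shares of all genes. Neither has the lincRNA biotype. Of 13 RNAs known from neurons 5 were tested, and 1 was higher and 1 lower in beta than in alpha, 3 were lower in beta than in delta and 3 lower in alpha than in delta. These counts include Peg13 and Meg3, which the rule for the 130 left out by name. Peg13 was the gene that was higher in beta than in alpha and was lower in alpha than in delta, and Meg3 was lower in beta and in alpha than in delta. The others lower in beta than in delta were Rmst, with 0 counts in every beta-enriched library, and Snhg11. Neither is among the 130. Snhg11 has the protein-coding biotype and is also listed as a host of small nucleolar RNAs. Of 11 RNAs of growth control and stress 7 were tested: 2 were lower in beta than in alpha, 1 was lower in beta than in delta, and 1 was higher and 3 lower in alpha than in delta. Beside the last 2 lists, 14.8% of all genes were higher and 11.9% lower in beta than in alpha. In beta compared with delta 15.3% were lower, and in alpha compared with delta 11% were higher and 13.3% lower.

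The median log2 fold changes for beta minus alpha, beta minus delta and alpha minus delta were -0.008, 0.025 and 0.033 for nuclear body RNAs, 0.042, 0.00404 and 0.23 for X inactivation RNAs and -0.23, -0.13 and 0.041 for hosts of small nucleolar RNAs. They were -1.85, -2.44 and -0.85 for microRNA hosts, 0.043, -0.53 and -1.07 for RNAs known from neurons and 0.068, -0.079 and -0.15 for RNAs of growth control and stress, against -0.02, -0.02 and -0.01 for all genes tested. Each median rests on the few genes tested, and that of the microRNA hosts is the midpoint of 2 genes in each comparison.

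Among the 66 lincRNAs with no call, those with the smallest standard errors for beta minus alpha were 1700020I14Rik, 5330434G04Rik, D930016D06Rik, 4932422M17Rik and 5031425E22Rik. 1700020I14Rik stood at 109, 122 and 117 CPM in the alpha-enriched libraries, 105, 106 and 105 in the beta-enriched and 94.2, 97.1 and 103 in the delta-enriched. Its log2 fold change was -0.14 for beta minus alpha, with a 95% interval of -0.34 to 0.06. The intervals were -0.35 to 0.23 for 5330434G04Rik, -0.54 to 0.09 for D930016D06Rik, -0.00101 to 0.66 for 4932422M17Rik and -0.63 to 0.04 for 5031425E22Rik. Each of these intervals excludes a 2-fold difference in either direction, while the adjusted p does not show that the subsets are alike.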

How the data were processed

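RNA of the 9 libraries was sequenced from a strand-specific kit, per the labels' protocols. The deposited gene tables hold expected counts and TPM that the authors estimated with RSEM after alignment with STAR 2.5.2b to GRCm38.p6, per the file headers and the submitters' processing notes (strand use in counting not given in the sources used here). The members and lists were chosen with earlier results of these data known.

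Expected counts were rounded and tested with edgeR 4.0.16 (R 4.3.3; TMM factors, filterByExpr, robust quasi-likelihood fit over all 9 libraries, Benjamini-Hochberg adjustment over 15896 genes, threshold 0.05). On simulated data for beta minus alpha with 15896 genes, the fit recovered 51 of 100 genes changed 2-fold and 92 of 100 changed 4-fold, with 7 false calls. The simulation gave every gene the same relative spread between libraries and changed few genes. Its rates thus need not hold for the lincRNAs described here. CPM are edgeR's, scaled by TMM factors. TPM were tested with limma 3.58.1, and DESeq2 1.42.0 was an alternative. In all, 4 alternatives were added after seeing the data: the fit without 4 abundant genes, neighbours without shared exon bases, lincRNAs without shared exon bases, and the share of protein-coding counts.

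Named genes were the 10 highest by TPM, the enriched ones (up to 10 a subset), the 5 largest changes in each direction per comparison without overlap between subsets, list members, 5 uncalled genes with the smallest standard errors, up to 6 called genes within 10 kilobases of a protein-coding neighbour, those at the edge of the rule, and neighbours. Genes outside this rule were chosen after their values were seen. Intervals on counts cover counting error only. An authors' normalized table of the same libraries was not used.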

Additional observations from a re-analysis of the deposited data

How the results depend on the processing

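Of 2499 alternative values for the log2 fold changes of 44 named lincRNAs, 2342 kept their side of the threshold, 135 lost a call and 22 gained one. Among values called in the main or the alternative fit, 0 turned direction. The direction of values called in neither was not checked. The counts of lincRNAs depended more on the settings, and the cause was not tested except where fewer lincRNAs were counted by construction. Leaving out 1 library gave 19 to 27 higher and 12 to 22 lower in beta than alpha, 21 to 28 and 8 to 17 in beta than delta, and 14 to 22 and 12 to 21 in alpha than delta, with 3 to 5, 11 to 14 and 3 enriched in alpha, beta and delta. On log2(TPM + 0.1) the counts were 13 and 8 for beta and alpha, 22 and 6 for beta and delta, and 13 and 5 for alpha and delta, with 1 enriched in delta; that scale moved the median of all genes by 0.17 and 0.23 in the last 2 comparisons. On log2(TPM + 1) they were 15 and 8, 23 and 5, and 15 and 6. With at least 100 counts, 78 lincRNAs remained in the set, 17 were higher in beta than delta and 7 enriched in beta. With 50 counts in all 9 libraries, 71 were left: 9 higher and 10 lower in beta than alpha, 10 and 9 in beta than delta, 12 and 13 in alpha than delta, 1 enriched in beta and 0 in delta. Among the 80 without shared exon bases, 10, 9 and 10 were lower in the 3 comparisons, with 2 enriched in alpha and 1 in delta.

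The summed share of the 130 in beta against alpha, 0.699, became 1.07 without Malat1 and 1.25 as a share of protein-coding counts without Malat1, Gm26917 and Gm42418. Beta against delta, 0.780, became 1.17 in TPM, 1.16 without Malat1 and 1.004 on the latter measure, and alpha against delta, 1.12, became 0.803 on it. Neat1 stayed in all of these sums, and without its counts the alpha-enriched libraries were no longer the lowest on the latter measure.

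The labels do not say whether the replicate numbers pair the samples. Deviations of same-numbered libraries correlated weakly, at 0.006 to 0.144, all above 0, which does not settle it. With the replicate block, 27 were higher and 20 lower in beta than alpha, 29 and 16 in beta than delta, and 24 and 21 in alpha than delta. Calls over all genes rose with the block in each comparison, for beta and alpha from 2345 higher and 1886 lower to 2561 and 2064. Low counts limit the weaker lincRNAs: Bc1, Gm47818 and Gm26882 rested on few reads in at least 1 subset.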
